A study of Mus musculus with 9 samples.

Results

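The genes described here are 38 genes that the sterol regulatory element binding proteins (SREBPs) are known to control, or that control the SREBPs themselves, measured by bulk RNA sequencing of the mouse jejunum. They were taken by gene symbol from a list of cholesterol and fatty acid synthesis genes, 38 of the 21868 genes in the deposited count table. The sterol branch holds 23 of them, and the fatty acid branch holds 15. Sham, total parenteral nutrition (TPN) and starvation were compared after 24 h, with 3 libraries per group. TPN is feeding by infusion into a vein, starvation is withdrawal of food, and the labels do not say what the sham procedure or the infusion consisted of, nor the strain, sex or age of the mice. A stretch of opened jejunum was used whole, so each library mixes epithelium with the other layers of the gut wall. Replicates are labelled biological, without a statement that they are separate mice, so p-values may not measure the spread between mice. All 38 members were among the 14668 genes that passed the filter on low counts.

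SREBPs are made as membrane proteins of the endoplasmic reticulum, where the sterol sensor Scap and the anchors Insig1 and Insig2 hold them while sterol is plentiful. When sterol is short, the complex moves to the Golgi, proteases release the active part, and it enters the nucleus and switches on its targets. The product of Srebf2 acts mainly on cholesterol synthesis, and the main product of Srebf1 in liver and other lipogenic tissues acts on fatty acid synthesis and is raised by insulin and by liver X receptors. Jejunal enterocytes take up dietary fat and cholesterol and also make both.

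Libraries held 7779877 to 12084278 counts, with 16023 to 16656 genes detected. Epithelial markers were abundant in all 9 libraries, with a summed level of 4671 to 11442 CPM (each library's counts scaled to a common size with TMM factors). Sham replicate 2 stood apart with a summed smooth muscle level of 9541 CPM, against 490 to 1407 in the other 8 libraries. Starvation replicate 3 stood apart with the highest sum of villus enterocyte markers, 118180 CPM, and the lowest sum of stem and cycling crypt markers, 230 CPM. Sham replicate 3 held transcripts of the fat cell genes Adipoq, Plin1, Cfd and Lep that the other sham libraries nearly lacked, as described with Fasn and Scd1. Pancreatic acinar markers, 10 in all, summed to 18840 CPM in TPN replicate 2. They were at 3678 in sham replicate 1, 2522 in starvation replicate 1 and 375 in TPN replicate 1, against 30.6 to 44.5 in the rest. The part of pancreatic RNA in the members' values was not tested.

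Levels can be compared between genes only per length, as CPM per kilobase of annotated exon. On that scale the most abundant member in sham was Slc25a1, the mitochondrial citrate carrier, at 111 ± 7.72 (SD, n = 3). Insig1 followed at 51.1 ± 3.78 and Stard4, a carrier of cholesterol between membranes, at 48.8 ± 7.07, and these did not differ beyond their spread. Srebf1, at 33.1 ± 5.85, was above Srebf2, at 11.6 ± 1.80, in every sham library. The lowest member was Acacb, the mitochondrial acetyl-CoA carboxylase, at 0.412 ± 0.0844, against 5.09 ± 1.11 for its cytosolic counterpart Acaca. In TPN, Srebf1 reached 104 ± 1.81 CPM per kilobase and Slc25a1 stood at 44.2 ± 0.542.

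The promoter sequences of 4 members are shown because these members carry the main results: Hmgcs1 and Insig1 were lower in TPN and in starvation, and Slc25a1 and Srebf1 moved in opposite directions in TPN. The bases before the start come from RefSeq on GRCm38.p6, written 5′ to 3′ on the strand of the gene, with annotated exon bases left out. Srebf1 has 3 starts in that table, which counts per gene do not separate. Both windows that hold a GC box are printed, and the window of start 1, which holds a CCAAT box 166 bases before the start, is not. Capitals mark matches, on either strand, to the sterol regulatory element TCACNCCAC, the E-box CACGTG, the CCAAT box CCAAT and the GC box GGGCGG, none of which overlap in these windows.
Hmgcs1, chr13:119690101-119690350, plus strand: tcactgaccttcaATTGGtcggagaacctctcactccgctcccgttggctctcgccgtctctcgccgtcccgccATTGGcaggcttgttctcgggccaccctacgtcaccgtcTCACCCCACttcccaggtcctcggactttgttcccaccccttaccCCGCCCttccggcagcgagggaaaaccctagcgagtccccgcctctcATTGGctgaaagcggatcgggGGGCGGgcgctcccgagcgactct
Insig1, chr5:28071162-28071362, plus strand: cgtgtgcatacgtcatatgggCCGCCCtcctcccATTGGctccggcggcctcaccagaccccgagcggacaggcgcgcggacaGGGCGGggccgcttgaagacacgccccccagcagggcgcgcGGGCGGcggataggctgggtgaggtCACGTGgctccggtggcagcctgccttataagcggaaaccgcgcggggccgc
Slc25a1, chr16:17928220-17928469, minus strand: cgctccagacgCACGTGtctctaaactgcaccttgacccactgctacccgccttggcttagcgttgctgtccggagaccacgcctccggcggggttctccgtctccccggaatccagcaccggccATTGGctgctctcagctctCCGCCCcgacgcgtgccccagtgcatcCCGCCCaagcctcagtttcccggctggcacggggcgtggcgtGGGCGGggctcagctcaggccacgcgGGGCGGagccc
Srebf1, start 2, chr11:60220628-60220877, minus strand: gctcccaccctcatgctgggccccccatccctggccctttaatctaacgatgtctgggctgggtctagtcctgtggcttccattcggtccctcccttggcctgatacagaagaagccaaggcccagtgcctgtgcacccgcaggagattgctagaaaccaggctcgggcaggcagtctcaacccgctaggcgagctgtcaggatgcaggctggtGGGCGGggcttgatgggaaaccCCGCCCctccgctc
Srebf1, start 3, chr11:60210472-60210721, minus strand: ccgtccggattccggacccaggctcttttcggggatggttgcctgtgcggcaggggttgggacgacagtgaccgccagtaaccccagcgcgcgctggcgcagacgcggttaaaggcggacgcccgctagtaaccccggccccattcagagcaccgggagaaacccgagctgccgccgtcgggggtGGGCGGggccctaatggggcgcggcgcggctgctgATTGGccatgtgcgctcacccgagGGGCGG
The Hmgcs1 window holds the only match to TCACNCCAC among the 31 members with a promoter in the table, 137 bases before the start. Insig1 and Slc25a1 each hold an E-box, 101 and 239 bases before the start. Both Srebf1 windows hold 2 GC boxes, and that of start 3 also holds a CCAAT box 30 bases before the start.

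Promoters were in the table for 31 of the 38 members and 11367 of the genes tested, and each gene was searched over the 250 bases before its starts. Fdps, Fdft1, Sqle, Stard4, Scd1, Scd2 and Fads1 had no entry. CCAAT occurred in 25 of the 31 members (80.6%), against 40.0% of all promoters. In the sterol branch 17 of 19 held it, and in the fatty acid branch 8 of 12. GGGCGG occurred in 25 of 31 members (80.6%) against 60.8% of all promoters, in 18 of 19 sterol and 7 of 12 fatty acid members. CACGTG occurred in 7 of 31 (22.6%) against 9.39%, in Hsd17b7, Sc5d, Dhcr7, Insig1, Scap, Slc25a1 and Elovl5. TCACNCCAC occurred in 1 of 31 (3.23%) against 1.30%. These 4 motifs were kept after 7 patterns had been searched. The other 3 were variants of the sterol regulatory element that overlap it. TCACCCCA was found in 2 members, Hmgcs1 and Srebf2, and in 1.70% of all promoters. A longer form was found in 0 members and in 0.0792% of promoters. A looser form of TCACNCCAC, with C or G allowed after TCA and at the end, was found in 3 members, Hmgcs1, Acly and Slc25a1, and in 6.25% of promoters. Each match describes the letters in the window and is not evidence of binding.

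In TPN against sham, most members of both branches had lower mean levels, and Srebf1 was higher. By edgeR's quasi-likelihood test, 11 of 38 members fell and 1 rose at an adjusted p under 0.05, against 5.12% of all genes tested that fell and 3.48% that rose. The median log2 fold change was -0.56 in the sterol branch and -0.64 in the fatty acid branch, against -0.02 over all genes. In 19 of 38 members every TPN library was below every sham library, against 21.4% of all genes. Of 10 villus enterocyte markers 3 fell by edgeR's test, Fabp2, Alpi and Anpep, and the sum of all 10 was 33018 to 39967 CPM in TPN against 44322 to 84917 in sham. Most of that sum was Apoa4 and Apoa1, with means of 20740 and 11440 CPM in TPN and 34192 and 12583 in sham. Both overlapped sham, as did Fabp1, whose mean was higher in TPN (90.8 against 68.8 CPM). In 7 of the 10 every TPN library was below every sham library. Of 6 fibroblast markers 3 fell, the collagens Col1a1, Col1a2 and Col3a1, and all 6 summed to 183 to 250.1 CPM in TPN against 365 to 963 in sham. Of 8 general epithelial and 10 smooth muscle markers 0 passed by edgeR, with 2 and 9 at an unadjusted p under 0.05. In bulk samples, fewer cells of a type and less RNA per cell cannot be told apart, and the part of these markers' changes in the results was not tested.

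**Figure D1:**
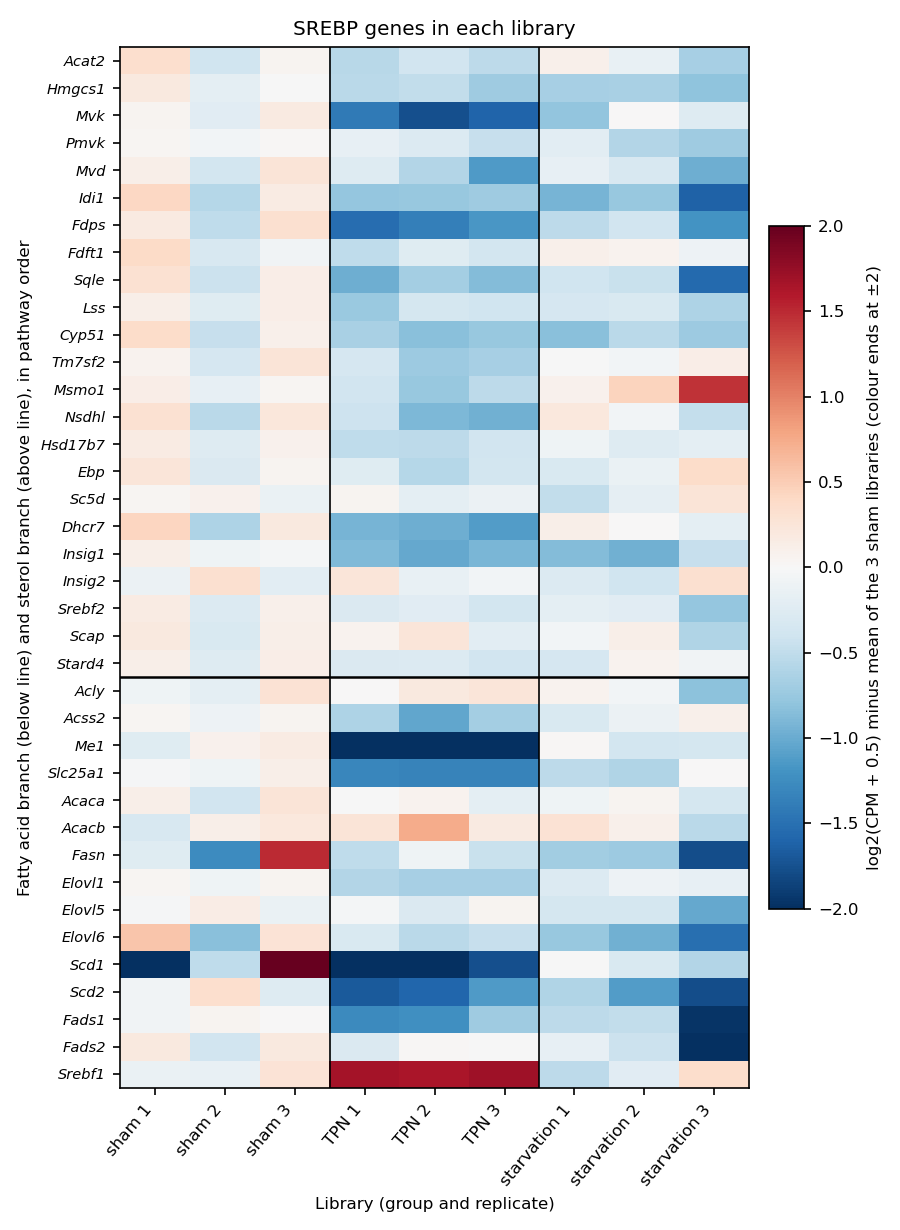
Heat map of log2(CPM + 0.5) minus the mean of the sham libraries, for 38 members (rows, sterol branch above the line, fatty acid branch below it) in 9 libraries (columns). Srebf1 is red and Me1 and Slc25a1 are blue in all 3 TPN libraries, Fasn and Scd1 are red in sham replicate 3 alone, and 15 of the 38 members have their lowest level in starvation replicate 3.

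The mevalonate steps, which build isoprenoid units from acetyl-CoA, had 3 of 7 members lower in TPN. Hmgcs1, the cytosolic HMG-CoA synthase, was at 138, 104 and 119 CPM in the sham libraries and at 82.6, 84.9 and 73.1 in the TPN libraries. The groups did not overlap, and the log2 fold change was -0.59 ± 0.14 (SE; edgeR adjusted p = 0.0360). Mvk, mevalonate kinase, was at 10.4, 8.54 and 11.4 CPM in sham and at 3.46, 2.62 and 2.96 in TPN. All TPN values of Mvk lay below every sham value, with a log2 fold change of -1.74 ± 0.29 (edgeR adjusted p = 0.00952). Fdps, which makes farnesyl diphosphate, was at 19.2, 11.7 and 21.2 CPM in sham and at 5.52, 6.20 and 7.29 in TPN. The Fdps groups did not overlap either (-1.45 ± 0.30, edgeR adjusted p = 0.0219), but 26.7% of its exon bases overlap another coding gene on the same strand, so its counts are uncertain. Other members that share over 10% of their 50-base words with transcripts of other genes were Acat2 (39.1%), Acaca (30.4%), Me1 (28.3%), Fdft1 (26.5%), Idi1 (25.3%) and Hmgcs1 (11.6%). The other 4 members, Acat2, Pmvk, Mvd and Idi1, had log2 fold changes of -0.83 to -0.31 and did not pass (edgeR adjusted p = 0.112 to 0.378).

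From squalene to cholesterol, 2 of 11 enzymes fell in TPN and none rose. Cyp51, the lanosterol demethylase, was at 58.0, 32.6 and 48.4 CPM in sham and at 28.7, 25.0 and 26.5 in TPN (-0.79 ± 0.21, edgeR adjusted p = 0.0452). Its lowest sham value, in replicate 2, was close to the highest TPN value. Dhcr7, the reductase that makes cholesterol from its last precursor, was at 54.7, 26.2 and 46.8 CPM in sham and at 21.2, 20.5 and 18.6 in TPN (-1.08 ± 0.24, edgeR adjusted p = 0.0291). Here too sham replicate 2 was the lowest of its group, although above all TPN libraries. Sqle, the epoxidase that opens the oxygen-dependent part of the route, was at 38.2, 22.7 and 33.7 CPM in sham and at 15.3, 19.0 and 16.7 in TPN. Its log2 fold change of -0.89 ± 0.31 did not pass (edgeR adjusted p = 0.103). The 9 enzymes that did not pass, Fdft1, Sqle, Lss, Tm7sf2, Msmo1, Nsdhl, Hsd17b7, Ebp and Sc5d, all had negative values, from -0.89 to -0.09. Over both stages, 18 of 18 sterol enzymes had a negative log2 fold change and 5 of them passed. Of all genes tested, 7533 of 14668 were negative. The 18 values come from the same libraries, so their signs are not independent. With libraries scaled by their totals alone, Sc5d turned to 0.11.

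Among the 5 genes of sterol sensing and transport, Insig1 fell in TPN and the other 4 did not pass. Insig1, which is itself an SREBP target, was at 171, 149 and 154 CPM in sham and at 85.1, 77.7 and 83.6 in TPN. Its groups lay far apart, with a log2 fold change of -0.94 ± 0.16 (edgeR adjusted p = 0.00949). Insig2, the second anchor, was at 43.5, 59.2 and 40.7 CPM in sham and at 56.0, 42.6 and 45.6 in TPN, so its groups overlapped (0.01 ± 0.22, edgeR adjusted p = 0.985). Srebf2 was at 92.1, 68.2 and 88.8 CPM in sham and at 67.2, 70.2 and 63.9 in TPN (-0.31 ± 0.18, edgeR adjusted p = 0.311). Scap was at 45.0, 31.6 and 42.8 CPM in sham and at 41.2, 46.8 and 33.9 in TPN (0.03 ± 0.22, edgeR adjusted p = 0.947). Stard4 had -0.32 ± 0.17 (edgeR adjusted p = 0.263).

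In the fatty acid branch, 3 of the 4 genes that supply acetyl-CoA and NADPH fell in TPN, and Acly did not pass. Me1, the malic enzyme that makes cytosolic NADPH, was at 31.9, 40.1 and 42.2 CPM in sham and at 9.06, 7.51 and 7.85 in TPN. With a log2 fold change of -2.22 ± 0.19 (edgeR adjusted p = 4.6e-04), Me1 was 4.67-fold lower. Most of the words it shares are those of Gm7049, so its counts are uncertain to that extent. Slc25a1 was at 235, 227 and 259 CPM in sham and at 97.0, 94.9 and 95.1 in TPN, with no overlap and a narrow TPN range (-1.33 ± 0.18, edgeR adjusted p = 0.00424). Acss2, which makes acetyl-CoA from acetate, was at 73.1, 65.6 and 73.9 CPM in sham and at 45.7, 34.2 and 44.0 in TPN (-0.78 ± 0.16, edgeR adjusted p = 0.0198). Acly, the citrate lyase that uses the citrate Slc25a1 exports, was at 27.3, 25.2 and 35.4 CPM in sham and at 29.3, 33.3 and 34.4 in TPN. The Acly groups overlapped (0.14 ± 0.24, edgeR adjusted p = 0.742).

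None of the 3 genes of chain synthesis passed in TPN by edgeR's quasi-likelihood test or by DESeq2, and 0 had an unadjusted p under 0.05. Acaca, which commits acetyl-CoA to fatty acids, was at 93.2, 65.6 and 102 CPM in sham and at 85.2, 90.0 and 74.6 in TPN (-0.06 ± 0.19, edgeR adjusted p = 0.861). Acacb was at 3.04, 4.27 and 4.58 CPM in sham and at 4.78, 6.91 and 4.48 in TPN (0.44 ± 0.35, edgeR adjusted p = 0.447). Fasn, the fatty acid synthase, was at 107, 52.8 and 359 CPM in sham and at 89.1, 120 and 93.4 in TPN. The TPN values lay inside the wide sham range (-0.78 ± 0.58, edgeR adjusted p = 0.421).

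Of the 7 elongases and desaturases, Elovl1 and Scd2 fell in TPN. Elovl1, an elongase of very long chains, was at 126, 114 and 126 CPM in sham and at 81.2, 77.0 and 76.6 in TPN (-0.64 ± 0.12, edgeR adjusted p = 0.0135). Scd2, a stearoyl-CoA desaturase, was at 81.3, 109 and 71.3 CPM in sham and at 26.5, 28.3 and 39.0 in TPN (-1.48 ± 0.30, edgeR adjusted p = 0.0188). Neither gene had overlapping groups. Scd1, the main desaturase of liver and fat, was at 13.4, 39.5 and 333 CPM in sham and at 4.20, 13.5 and 16.4 in TPN. Its log2 fold change of -3.51 ± 1.03 was the largest in size and did not pass (edgeR adjusted p = 0.0660). Sham replicate 3 was far above the rest, and the lowest sham value lay inside the TPN range. Fads1, a desaturase of polyunsaturated chains, had no overlap, with 51.4, 56.3 and 54.2 CPM in sham and 21.9, 22.9 and 32.8 in TPN, and did not pass (-1.06 ± 0.34, edgeR adjusted p = 0.0808). Elovl5, Elovl6 and Fads2 had values of -0.09, -0.54 and -0.12.

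Srebf1 was the only member that rose. It was at 169, 166 and 225 CPM in sham and at 587, 577 and 597 in TPN, and at 129, 157 and 235 in starvation. The 3 TPN libraries were far above the other 6 and close to each other. The log2 fold change was 1.65 ± 0.24 against sham (3.14-fold, edgeR adjusted p = 0.00536) and 1.76 ± 0.24 against starvation (edgeR adjusted p = 0.00575). The 2 rises share the TPN libraries. Transcripts from its different starts are summed in these counts, and 1.9% of its exon bases overlap Rai1 on the other strand.

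**Figure D2:**
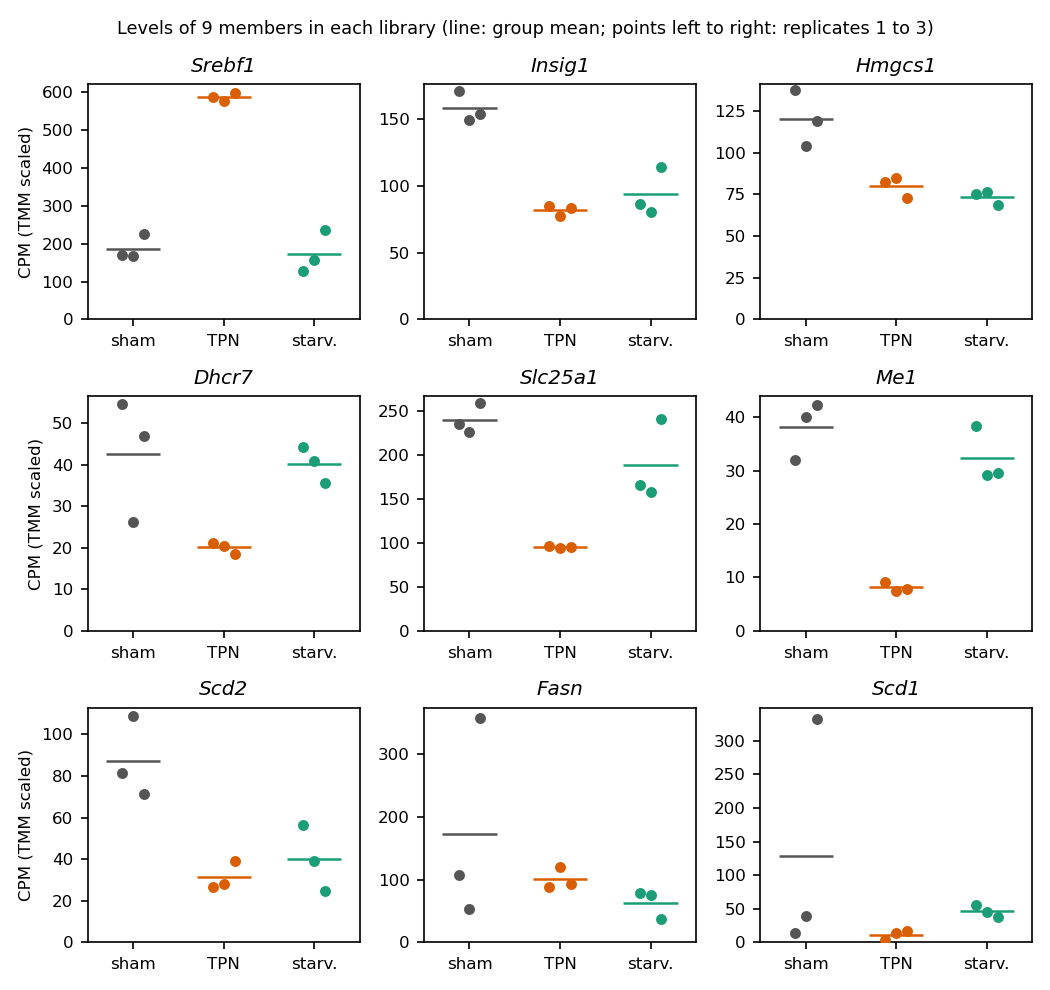
Level of 9 members in CPM (vertical axes from 0, TMM scaled) in each library of sham, TPN and starvation, with a line at the group mean. Srebf1 is between 577 and 597 in TPN and at most 235 elsewhere, and Me1 is at most 9.06 in TPN and at least 29.2 elsewhere, while in Fasn and Scd1 the sham mean is set by replicate 3.

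Starvation was compared with the same sham libraries, so the comparisons share their controls. Hmgcs1 and Insig1 fell, 2 of 38 members, against 1.14% of all genes, and 0 of 38 rose, against 2.55%. By edgeR's quasi-likelihood test 13 of the 38 reached an unadjusted p under 0.05, as did 3430 of the 14668 genes tested. DESeq2 called 6 members and 11.3% of all genes. In 37 of 38 members the log2 fold change was negative, against 7455 of the 14668 genes tested. With library totals alone Fdft1, Tm7sf2 and Acacb turned to 0.04, 0.01 and 0.07. The medians were -0.24 in the sterol branch and -0.35 in the fatty acid branch, against -0.01 over all genes. A library's branch score is the median over members of log2 CPM minus the gene's mean over the 9 libraries. The sterol score was 0.50 and 0.42 in sham replicates 1 and 3. In sham replicate 2 it was 0.02, below the 0.04 and 0.06 of starvation replicates 1 and 2. Starvation replicate 3 was at -0.19. In 10 of 38 members every starvation library was below every sham library, against 11.2% of all genes. Of 6 fibroblast markers 2 fell in starvation by edgeR's test, Col1a1 and Col3a1, and all 6 summed to 137 to 263 CPM against 365 to 963 in sham. Of 10 markers each of smooth muscle, of stem and cycling crypt cells and of villus enterocytes 0 passed by edgeR, with 9, 2 and 0 at an unadjusted p under 0.05. The markers' part in the members' values was not tested.

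Hmgcs1 was at 75.1, 76.2 and 68.6 CPM in starvation, below all 3 sham libraries (-0.72 ± 0.14, edgeR adjusted p = 0.0311). Insig1 was at 86.2, 80.7 and 114 CPM in starvation, also below all 3 sham libraries (-0.75 ± 0.16, edgeR adjusted p = 0.0355). Its highest starvation value was in replicate 3, the library with the most villus enterocyte transcripts. Idi1, the isomerase of the isoprenoid units, was at 10.4, 11.7 and 6.25 CPM against 27.0, 13.4 and 22.6 in sham and did not pass (-1.15 ± 0.30, edgeR adjusted p = 0.0689). Cyp51 at -0.75 ± 0.21 and Sqle at -0.76 ± 0.31 did not pass either (edgeR adjusted p = 0.0766 and 0.181). Neither call held when sham replicate 1, sham replicate 3, starvation replicate 2 or any TPN library was left out. In these fits 0 members passed by edgeR (7 to 12 at an unadjusted p under 0.05), and 0.214% to 1.17% of all genes did. Without starvation replicate 1 both calls were lost too, and the 1 member that passed was of the fatty acid branch (2.49% of all genes passed). Without sham replicate 2 Insig1 was lost (edgeR adjusted p = 0.0591), and 4 members passed, Hmgcs1 among them, with 1.76% of all genes. Dhcr7, at 44.3, 40.8 and 35.5 CPM, overlapped sham (-0.08 ± 0.24), as did Mvk, at 5.59, 10.1 and 8.33 CPM (-0.34 ± 0.28).

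Msmo1, the methylsterol monooxygenase, was the only member with a positive value in starvation. It was at 79.8, 65.1 and 74.7 CPM in sham and at 77.5, 99.7 and 199 in starvation (0.77 ± 0.30, edgeR adjusted p = 0.166). The highest value came from replicate 3, and the lowest lay inside the sham range. In TPN it was at 55.8, 43.2 and 50.4 CPM, below every library of both other groups.

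In the fatty acid branch 0 of 15 members passed in starvation by edgeR's quasi-likelihood test, 5 had an unadjusted p under 0.05, and DESeq2 called 2, against its 11.3% of all genes. Scd2 was at 56.4, 39.4 and 24.8 CPM, below every sham library (-1.11 ± 0.29, edgeR adjusted p = 0.0691). Elovl6, the elongase of palmitate, was at 131, 113 and 77.8 CPM against 324, 124 and 268 in sham (-1.15 ± 0.33, edgeR adjusted p = 0.0834). Fasn was at 78.1, 76.1 and 36.6 CPM (-1.44 ± 0.59, edgeR adjusted p = 0.183), and Scd1 at 56.2, 45.5 and 37.5 (-1.47 ± 0.94, edgeR adjusted p = 0.370). Both overlapped the sham libraries. The supply genes Me1, Slc25a1, Acss2 and Acly had values of -0.35 to -0.10, and Me1 at 38.3, 29.2 and 29.6 CPM overlapped sham. Srebf1 overlapped sham as well (-0.10 ± 0.23, edgeR adjusted p = 0.824).

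**Figure D3:**
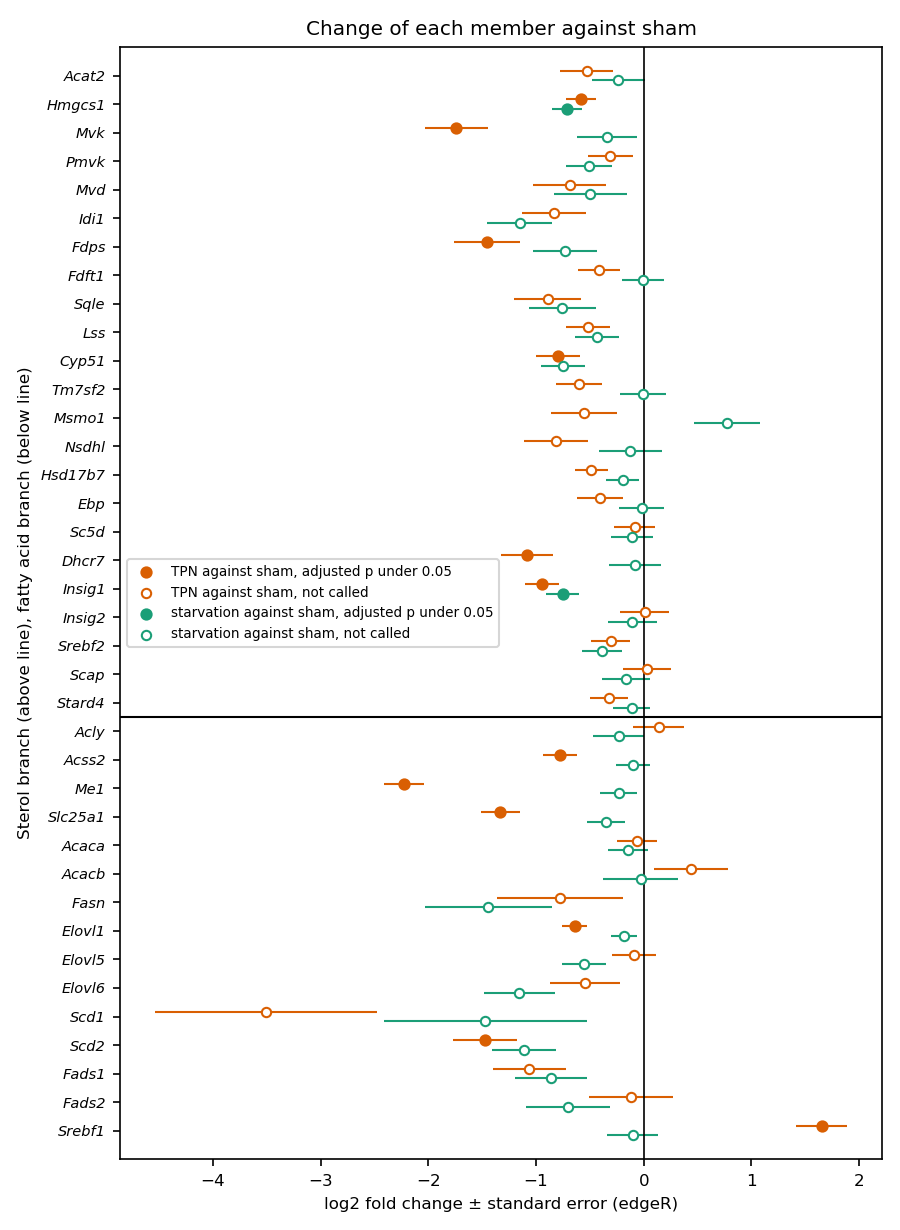
Log2 fold change (horizontal axis, with its standard error) of each member in TPN against sham and in starvation against sham, in pathway order with the sterol branch above the line. Filled points passed edgeR's quasi-likelihood test, 12 in TPN and 2 in starvation. Points left of 0 are lower than sham, as for 33 and 37 of the 38 members. Of all 14668 genes tested, 7533 and 7455 were lower.

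TPN against starvation tests the difference between these groups directly. Here 6 of 38 members were lower in TPN, against 3.9% of all genes, and 1 was higher, against 1.94%. Me1 (-1.99 ± 0.19, edgeR adjusted p = 0.00113), Slc25a1 (-0.98 ± 0.18) and Acss2 (-0.68 ± 0.16), all of the acetyl-CoA and NADPH supply, were lower, and Srebf1 was higher. In the sterol branch Mvk (-1.40 ± 0.29), Msmo1 (-1.33 ± 0.31) and Dhcr7 (-1.002 ± 0.24) were lower (edgeR adjusted p = 0.0250 to 0.0440). Hmgcs1 and Insig1, the members lower in both groups against sham, did not pass here, with 0.13 ± 0.14 and -0.19 ± 0.16. Of the other fatty acid genes, Fasn, Elovl5 and Elovl6 were higher in every TPN library than in any starvation library, with values of 0.66, 0.47 and 0.61 that did not pass (edgeR adjusted p = 0.213 to 0.539). Scd1 (-2.03 ± 0.99) and Elovl1 (-0.46 ± 0.12) were lower in every TPN library and did not pass (edgeR adjusted p = 0.254 and 0.0526). Every TPN library was above every starvation library in 4 of 38 members and in 2247 of 14668 genes tested. It was below in 11 of 38 members and in 2679 of 14668 genes. With a TPN library left out 2 members passed (0.831% to 1.07% of all genes, against 5.84% with all libraries). Without starvation replicate 2 it was 3 (3.09%), and without sham replicate 3 it was 4 (3.54%). The median was -0.19 in the sterol branch and 0.09 in the fatty acid branch, against -0.03 over all genes.

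The branches did not separate in their medians against sham. The sterol median minus the fatty acid median was 0.09 in TPN and 0.11 in starvation on the log2 scale, both under 0.199, the pooled standard deviation of that difference between libraries of a group. In TPN against starvation it was -0.28, and without starvation replicate 3 it was -0.18. The spread of 0.199 takes in that library, so it does not judge the value without it. It is a spread between libraries and not the error of a difference between group medians. No test was made. Starvation replicate 3 stood apart, with a difference of 0.51 between its own branch scores against -0.25 to 0.18 in the other 8 libraries. Inside the fatty acid branch the values spread more, from -3.51 to 1.65 in TPN, against -1.74 to 0.03 in the sterol branch. The TPN falls of that branch that passed were Me1, Slc25a1, Acss2, Elovl1 and Scd2. Of the members not called, Acly, Acaca and Acacb were at 0.14, -0.06 and 0.44, and Elovl5 and Fads2 at -0.09 and -0.12. Scd1, Fads1, Fasn and Elovl6, also not called, were at -3.51, -1.06, -0.78 and -0.54.

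**Figure D4:**
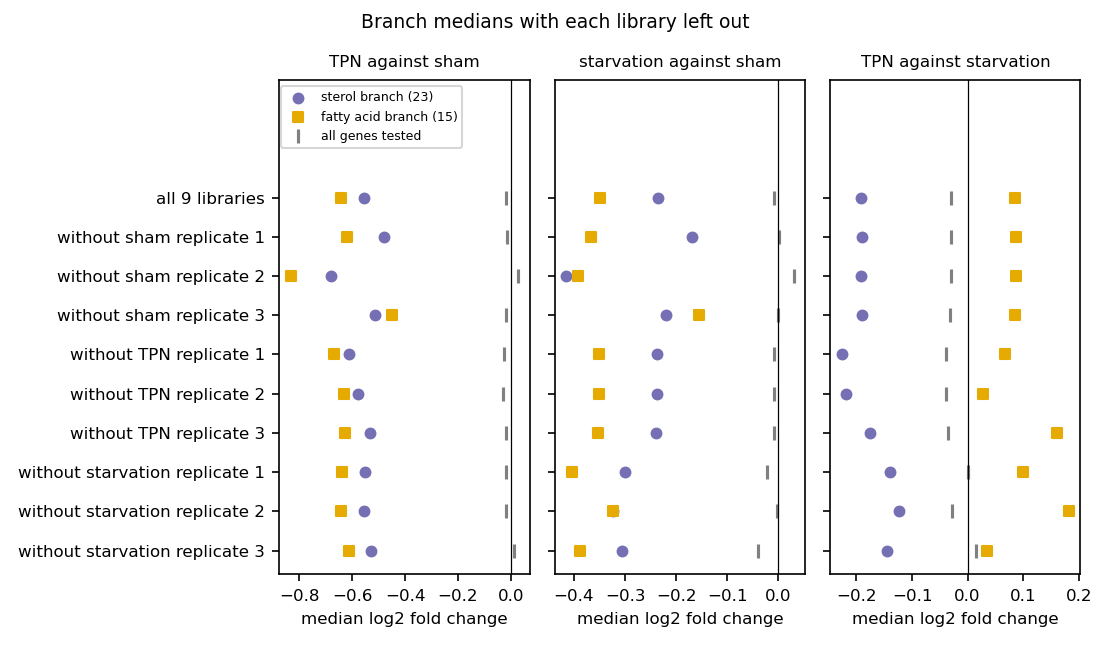
Median log2 fold change (horizontal axes) of the 23 sterol members, the 15 fatty acid members and all genes tested, for the 3 comparisons, with all 9 libraries (top) and with each library left out. In TPN against sham the fatty acid median is -0.64 with all libraries and -0.45 without sham replicate 3, where it lies above the sterol median of -0.51.

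Without sham replicate 3, 6 of the 12 TPN calls were kept and none was added, at 5 lower members against 1.69% of all genes. These were Srebf1 (1.81), Me1 (-2.14), Slc25a1 (-1.27), Insig1 (-0.96), Mvk (-1.64) and Scd2 (-1.60), with edgeR adjusted p = 0.00459 to 0.0453. Hmgcs1, Fdps, Cyp51, Dhcr7, Acss2 and Elovl1 had log2 fold changes of -1.29 to -0.59 and no longer passed. In starvation 0 members passed by edgeR without that library, against 0.0669% of all genes lower, and 7 had an unadjusted p under 0.05. Hmgcs1 was then at -0.72 ± 0.17 and Insig1 at -0.77 ± 0.18 (edgeR adjusted p = 0.0954 and 0.0957).

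Fasn and Scd1 turned on sham replicate 3. Without it, the TPN value of Fasn moved from -0.78 to 0.33 ± 0.38 and that of Scd1 from -3.51 to -1.22 ± 0.56, and their starvation values moved from -1.44 to -0.33 ± 0.38 and from -1.47 to 0.82 ± 0.57. None of these passed (edgeR adjusted p = 0.238 to 0.661). The same library held 186 reads of the fat cell hormone gene Adipoq, 135 of the lipid droplet gene Plin1, 746 of Cfd and 56 of Lep. These 4 markers, singled out after their values were seen, summed to 93.6 CPM in sham replicate 3. Sham replicates 1 and 2 had 2.75 and 0.320 CPM of them, and TPN libraries 0.0824 to 3.76. Thrsp, a lipogenic regulator also singled out afterwards, was at 23.7 CPM there and at 1.67 to 4.65 in the other 8 libraries. Starvation replicate 3 held 53.1 CPM of the 4 markers, of which Cfd made up 48.5, Adipoq 3.12 and Plin1 1.504, with Lep at 0. It had the lowest Fasn of all libraries. The whole list of 9 adipocyte markers, of which 5 passed the filter on low counts, had 0 called by edgeR (0 and 1 at an unadjusted p under 0.05 in TPN and in starvation) and summed to 157 to 334 CPM in sham, 123 to 173 in TPN and 91.4 to 400 in starvation, most of it Cidec, which enterocytes also express. Adipoq, Plin1 and Cfd were at 0 reads in sham replicate 2. Yet that library had the highest sham sum of the whole list, 334 CPM against 301 in sham replicate 3. Plin4 was at 32.0 CPM there against 18.7, Cidec at 301 against 185 and Cidea at 0.213 against 0.0833. Fabp4 and Retn were higher in sham replicate 3, at 3.67 and 0.250 CPM against 0.640 and 0. The part of fat cell RNA in the Fasn and Scd1 values was not tested.

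**Figure D5:**
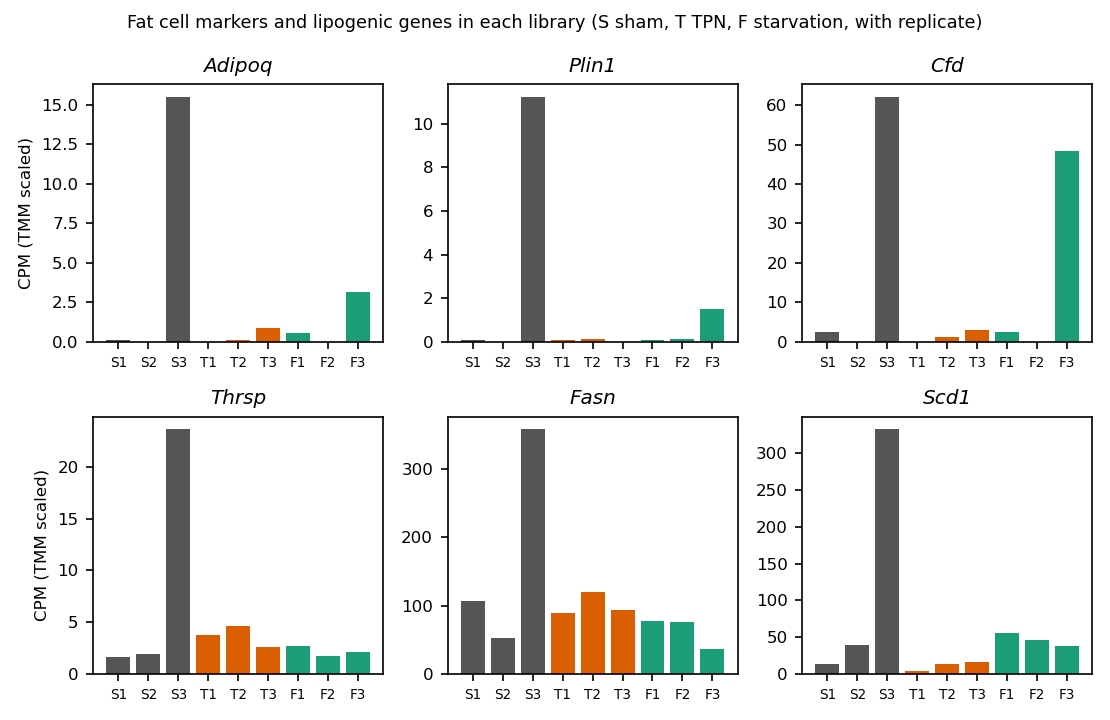
Level in CPM (vertical axes from 0, TMM scaled) of the fat cell markers Adipoq, Plin1 and Cfd, the lipogenic regulator Thrsp, and Fasn and Scd1, as bars for each of the 9 libraries. All 6 genes are highest in sham replicate 3, at 359 CPM for Fasn, and Fasn is lowest in starvation replicate 3, at 36.6 CPM, where Cfd is at 48.5.

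Other libraries moved the counts too. With sham replicate 2, the library with the most smooth muscle, and starvation replicate 3, the library with the fewest crypt transcripts, both left out, 29 of 38 members passed in TPN against sham, 28 of them lower, and 11 passed in starvation, all lower, while calls over all genes went from 8.60% to 29.8% and from 3.69% to 19.9%. The sterol branch then had 19 of 23 members lower in TPN and 7 in starvation. Sham replicate 2 had the lowest sterol and fatty acid scores of its group, 0.02 and 0.18. Leaving it out therefore raises the sham level. Starvation replicate 3 also had the lowest scores of its group, -0.19 and -0.70. In 27 of the 38 members the highest library was sham replicate 1 or 3. With 1 TPN library left out, 3 or 4 members passed in TPN against sham (1.45% to 1.62% of all genes). It was 7 without sham replicate 1 (3.75% of all genes) and 16 without starvation replicate 3 (21.3% of all genes). Me1, Slc25a1 and Srebf1 kept their TPN calls against sham in all 9 such fits, and Me1 and Srebf1 also kept those against starvation.

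Neighbouring pathways were taken from lists of 79 genes in 9 groups. Their calls were not checked with libraries left out or under the other alternatives. Of the 8 liver X receptor targets and sterol exporters, Abca1, which loads cholesterol onto lipoproteins, rose in TPN (1.38 ± 0.18, edgeR adjusted p = 0.00332) and in starvation (1.11 ± 0.17, edgeR adjusted p = 0.0168). Abcg8, a subunit of the transporter that returns sterol to the gut lumen, rose in starvation (1.05 ± 0.25, edgeR adjusted p = 0.0488). That made 1 of 8 called higher in TPN and 2 of 8 in starvation, against 3.48% and 2.55% of all genes. None of the 8 was called lower, but Arl4c (-0.63 ± 0.30), Abcg4 (-0.29 ± 0.77) and Lpcat3 (-0.16 ± 0.21) had negative values in TPN. Medians of the list were 0.77 in TPN and 0.92 in starvation, against -0.02 and -0.01 over all genes. Nr1h3, which encodes a liver X receptor, did not pass (-0.15 ± 0.23 and 0.24 ± 0.23), and neither did Mlxipl, the carbohydrate response factor (0.18 ± 0.30 and 0.44 ± 0.30).

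A list of 6 cytosolic enzymes that make NADPH or belong to the pentose phosphate route had 3 lower in TPN, as Me1 was. By edgeR 0 of 6 were called in starvation (1 at an unadjusted p under 0.05). The 3 that fell in TPN all make NADPH: G6pdx (-1.32 ± 0.14, edgeR adjusted p = 0.00174), Pgd (-0.81 ± 0.18) and Idh1 (-0.95 ± 0.25, edgeR adjusted p = 0.0492). Taldo1 (-0.38 ± 0.29), Tkt (0.15 ± 0.22) and Pgls (-0.17 ± 0.26), which do not make NADPH themselves, did not pass. G6pdx and Idh1 were also lower in TPN than in starvation (-0.84 ± 0.14 and -1.27 ± 0.26). Of 9 genes that process SREBPs or turn over Insig and sterol enzymes, Erlin1 (-0.77 ± 0.18), Vcp (-0.72 ± 0.18) and Rnf139 (-0.44 ± 0.12, edgeR adjusted p = 0.0491) fell in TPN. In starvation 0 of 9 were called by edgeR (3 at an unadjusted p under 0.05). Neither protease gene passed in TPN, with Mbtps1 at 0.33 ± 0.13 and Mbtps2 at -0.04 ± 0.24.

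Of the ketone body enzymes, Oxct1, which uses ketone bodies, fell in TPN (-0.77 ± 0.20, edgeR adjusted p = 0.0472) and did not pass in starvation.

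Isoprenoid users had 2 of 9 tested genes higher in TPN, the coenzyme Q genes Pdss2 (0.83 ± 0.22) and Coq2 (0.82 ± 0.22). Both were close to the threshold (edgeR adjusted p = 0.0475 and 0.0491). The farnesyltransferase subunit Fntb was the 1 gene lower (-1.29 ± 0.18). Elovl7 was the only one of 9 tested further elongation and desaturation genes to change against sham, rising in TPN (0.77 ± 0.16). Mlx, the partner of Mlxipl, fell in TPN (-0.80 ± 0.17), 1 of 10 lipogenic regulators. Of 8 genes of sterol esterification and trafficking and 7 of mitochondrial fatty acid synthesis, 0 passed against sham by edgeR, with 1 and 2 at an unadjusted p under 0.05 in TPN and 2 and 0 in starvation. Against starvation, TPN had lower Soat2, which esterifies cholesterol in enterocytes (-1.44 ± 0.29), and higher Ndufab1, the mitochondrial acyl carrier (0.74 ± 0.16).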

How the data were processed

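Messenger RNA from the jejunum of sham, TPN and starved mice was sequenced in 9 libraries. Its authors deposited whole-number raw counts for each protein-coding gene. Aligner STAR 2.7.2e, counter featureCounts 2.0.0, trimmer cutadapt 2.9, FastQC 0.11.8, DESeq2 1.32.0 and builds GRCm38 and mm10 are listed in the submitters' processing notes. For strand setting, annotation release and multi-mapped reads, the choice is not given in the sources used here, so overlapping genes cannot be told apart. A further 9 columns carry the same group names with other numbers, matched no sample and were not used.

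Groups came from the labels. edgeR 4.0.16 (R 4.3.3) tested the counts: filterByExpr kept 14668 genes and removed 7200, TMM scaled the libraries, and the quasi-likelihood fit used all 9 libraries with 1 mean for each group (6 residual degrees of freedom). Benjamini-Hochberg adjustment ran over all genes tested, with a threshold of 0.05, and the standard error is the log2 fold change divided by the square root of F. The script was tested on simulated data. 1 read was worth 0.0798 to 0.119 CPM, and the biological coefficient of variation was 0.314. No pair of libraries agreed within sampling noise. Exons and positions are from GENCODE M21 on GRCm38.

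The members, the lists and the rule for named genes were chosen with earlier results of these data known. The rule gave per-library values to members called in any comparison and to a fixed set of regulators and lipogenic enzymes. Of each neighbouring list it gave up to 4 called genes per comparison. Stard4, Idi1, Fads1, Fads2, Elovl5, Elovl6, Sc5d, Fdft1, Tm7sf2, Nr1h3, Mlxipl, Mbtps1 and Mbtps2 were named outside it, after their values were seen. So were Arl4c, Abcg4, Lpcat3, Taldo1, Tkt, Pgls, Apoa1, Apoa4 and Fabp1. Alternatives were DESeq2 1.42.0, limma 3.58.1 voom, other scaling, other filters, fewer groups, the replicate number as a block and libraries left out. A gene of the neighbouring lists is not reported here.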

Additional observations from a re-analysis of the deposited data

How the results depend on the processing

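Across 20 alternatives per comparison, no member called with all settings as described turned direction. Of 2280 values of single members, 121 lost their call and 78 gained one. Another 73 had the other sign without being called in either fit, over 28 pairs of member and comparison, Fasn and Scd1 among them. The sterol median stayed between -0.77 and -0.37 in TPN against sham and between -0.42 and -0.16 in starvation, and the fatty acid median between -0.83 and -0.29 and between -0.46 and -0.16.

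In TPN against sham, 12 members passed (8.60% of all genes). It was 5 with library totals only (4 lower and 1 higher), 29 without sham replicate 2 and starvation replicate 3, 23 without sham replicates 2 and 3 and starvation replicate 3, and 3 to 16 with 1 library left out. Of all genes, 8.34% passed with library totals only and 29.8% without sham replicate 2 and starvation replicate 3. With 1 library left out 1.45% to 21.3% passed. The count of 23 comes from a fit with 1 sham library, so no conclusion is drawn from it. Library totals moved the median of all genes by 0.19, and relative to it the branch medians were -0.63 (fatty acid) and -0.54 (sterol). In TPN against starvation they moved it by 0.14. In starvation against sham, 2 passed (3.69% of all genes), but 6 with DESeq2 (11.3%) and 1 with library totals only (2.41%). The edgeR fit of only the groups compared gave 0 (0.0141%), with 7 members at an unadjusted p under 0.05. Without sham replicate 2 and starvation replicate 3 it was 11 (19.9%), and with 1 library left out 0 to 4 (0.214% to 11.6%). In TPN against starvation, 7 passed (5.84% of all genes), but 4 with library totals only (3 lower and 1 higher, with 4.88%). It was 3 with only the groups compared (3.78%) and 12 without sham replicate 2 and starvation replicate 3 (21.6%). With 1 library left out it was 2 to 8 (0.831% to 8.35%). The sterol median minus the fatty acid median in TPN against sham was 0.09, but -0.12 with limma voom and -0.48 without sham replicates 2 and 3 and starvation replicate 3, where in starvation against sham it was -0.11 in place of 0.11. That fit leaves 1 sham library, assumed to vary like the other groups. The cause of these moves was not tested. With 1 library left out the median difference ran from -0.06 to 0.15 in TPN against sham, from -0.06 to 0.20 in starvation and from -0.34 to -0.18 in TPN against starvation.

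With the replicate number as a block, 6 members passed in TPN against sham (3.79% of all genes) and 3 in TPN against starvation (2.63%). In starvation against sham 0 passed (11 at an unadjusted p under 0.05, edgeR), with 0.484% of all genes. Libraries with the same number deviated together (r over 0.1) in 2 of 9 pairs (r = -0.30 to 0.38), so the numbers were not taken to pair the samples. Depth limits the low members most, since the least abundant had 421 reads over the 9 libraries.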
